A study of Mus musculus with 12 samples.

Results

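The interaction of CHIR99021 and XAV939 in mouse epiblast stem cells (EpiSCs) was taken, for each gene, as the change made by CHIR99021 in cells that also had XAV939 minus the change made by CHIR99021 in cells without it. All 12 arrays of the series entered it, 3 in each of 4 groups, and it was computed for 19938 genes. EpiSCs are a primed pluripotent cell type, close to the epiblast of an embryo that has implanted. The groups, all on genetic background 129 and all recorded as kept without serum for 12 h, were cells given CHIR99021 (3 µM, 2 h) together with XAV939 (2 µM), cells given CHIR99021, cells given XAV939 and untreated cells (NT). The time with XAV939 is 2 h in the sample labels and 4 h in the design text, and a serum content of 10% is recorded for every group, so these 2 conditions are not settled. The labels do not state whether the 3 samples in each group are separate cultures, so the spread that the p-values rest on may be technical.

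CHIR99021 inhibits the kinase GSK3, which marks beta-catenin for destruction inside a complex built on Axin. XAV939 inhibits tankyrase, an enzyme that promotes the loss of Axin, so it stabilises Axin and favours the destruction of beta-catenin. The compounds therefore act on the same complex in opposite directions, and the combination asks whether the response to one depends on the other. Where the changes add on the log2 scale, the interaction is 0 and the level in CHIR+XAV cells is the CHIR level plus the XAV level minus the NT level, called the additive level here. A gene whose interaction has the opposite sign to its CHIR99021 effect is called antagonised (CHIR99021 moved it less with XAV939 present), and a gene whose interaction has the same sign is called excess (CHIR99021 moved it more).

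Values are the deposited log2 values; base 2 was inferred from the range of the values. All 10 EpiSC markers, among them Pou5f1 (mean 11.5), Sox2 (11.2), Otx2 (9.3) and Fgf5 (8.2), lay above 4.94, the 95th percentile of 1194 olfactory and vomeronasal receptor genes, used as a measure of background. Of the naive stem cell markers 5 of 10 lay above it, with Esrrb at 4.4 and Prdm14 at 4.3, and of the feeder fibroblast markers 3 of 10, with Dcn at 4.1 and Lum at 3.9. None of the 10 feeder markers had an interaction with an unadjusted p under 0.05 (limma), and neither did any of the 10 EpiSC markers, against 4.94% of all genes. Of the other marker lists, mesoderm had 2 of 10, naive stem cells 1 of 10 (Zfp42, -0.53, at a mean of 4.59, below background), endoderm 0 of 10 and neural progenitors 0 of 9. The description field of the samples, in contrast, names embryonic stem cells.

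The microRNA (miRNA) genes among the CHIR99021 responders fell on either side of the additive level, so their mature sequences are shown here, from RefSeq (GRCm38.p6), with the seed (bases 2 to 8, which pair with a target) in capitals. The first set comes from the miR-302 cluster at chr3:127545238-127545800 on the plus strand, which marks pluripotent cells, and the second from the miR-106a cluster at chrX:52741697-52742563 on the minus strand. Mir92-2 is the gene that gives miR-92a-3p in the second cluster.
miR-302b-3p: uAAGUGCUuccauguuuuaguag
miR-302d-3p: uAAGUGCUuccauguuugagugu
miR-367-3p: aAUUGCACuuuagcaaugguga
miR-106a-5p: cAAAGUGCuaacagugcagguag
miR-20b-5p: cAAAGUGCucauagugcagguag
miR-363-3p: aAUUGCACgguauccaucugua
miR-92a-3p: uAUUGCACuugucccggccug
The seed of miR-367-3p is also that of miR-363-3p and miR-92a-3p, although the clusters lie on different chromosomes.

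No gene passed the test of the interaction. Limma called 0 of 19938 genes (0%) at an adjusted p under 0.05, and 985 genes (4.94%) had an unadjusted p under 0.05, of which 480 (2.41%) were negative and 505 (2.53%) positive. Counted by sign alone, 9856 genes (49.4%) had a negative and 10082 genes (50.6%) a positive interaction. The median standard error (SE) of an interaction was 0.125 and the median half-width of its 95% interval 0.266 on the log2 scale. The interval of 18565 genes (93.1%) lay wholly within a departure of 1.5-fold in either direction. Of all 19938 genes, 11594 had a mean above the background measure, and the share was not computed for these alone. Every value given below for a single gene's interaction is thus a measurement with its interval, and none passed the adjusted test.

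**Figure D1:**
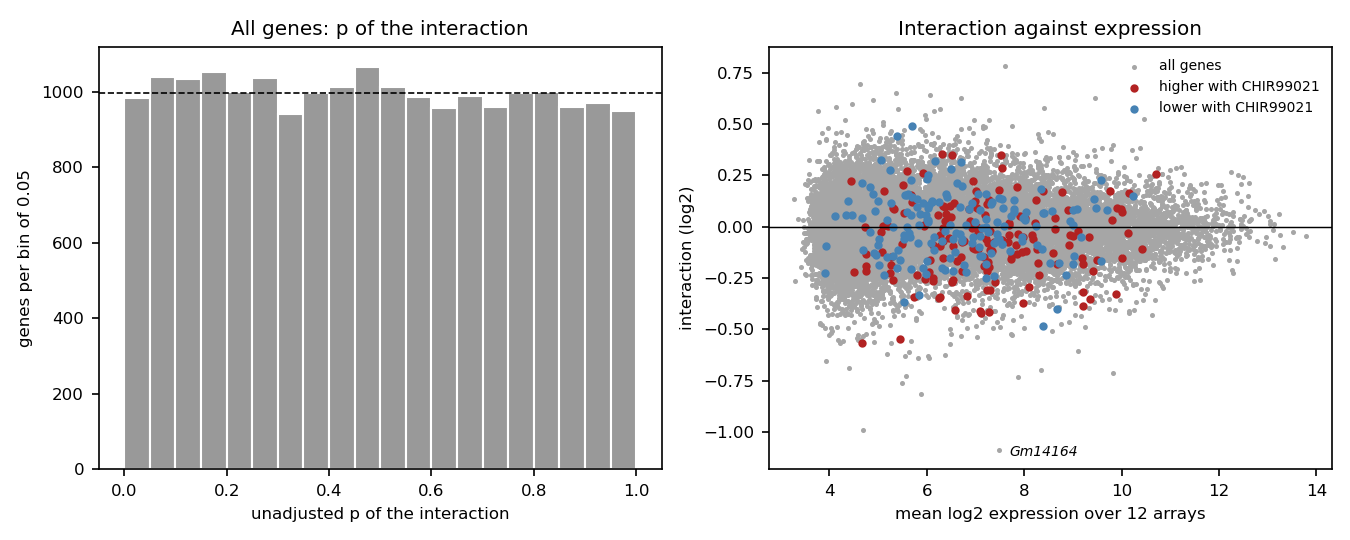
Left, the number of genes per bin of 0.05 of the unadjusted p of the interaction, with a dashed line at equal bins; the lowest bin, with 985 genes, lies within the range of the other bins. Right, the interaction (log2) of each gene against its mean log2 expression over 12 arrays, with the genes called higher (red) or lower (blue) by the CHIR99021 average effect; Gm14164 lies lowest, at -1.09.

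The genes that respond to CHIR99021 were chosen by its average effect, the mean of the change with XAV939 and the change without it. This average is orthogonal to the interaction, so the choice did not use the interaction's sign. Limma called 155 genes higher (0.777%) and 163 genes lower (0.818%), 318 in all and 211 without CHIR+XAV replicate 2. Among the 155 genes that rose, 101 (65.2%) had a negative interaction, against 49.4% of all genes tested, and 54 had a positive one. The 95% interval excluded 0 for 21 of the negative and 3 of the positive interactions. Together these were 15.5% of the 155 genes, against 4.94% of all genes. The interval lay within 1.5-fold for 133 of the 155 genes (85.8%), against 93.1% of all genes.

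The mean change of the 155 genes was 0.36 with XAV939 and 0.43 without it, so 84.3% of the mean change was kept. Over these genes the arrays averaged 7.34, 7.35 and 7.36 in CHIR+XAV cells, 7.41, 7.43 and 7.46 in CHIR cells, 7.02, 6.94 and 7.00 in XAV cells and 7.02, 7.03 and 6.95 in NT cells. Every CHIR+XAV array lay below every CHIR array, while the XAV and NT arrays overlapped. The mean interaction over the 155 genes was -0.0675, beside a pooled SD of 0.0329 for the mean of a single array. The mean interaction combines the means of all groups, so its SE is larger than this SD. That SE was not computed, and the mean interaction was not tested against 0. The mean interaction was -0.0415 without NT replicate 3 and -0.0896 without XAV replicate 2. These arrays had the smallest spread of values (SD 2.14 each, against 2.16 to 2.21 in the other 10). The part of that spread in the result was not tested.

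Among the 163 genes that fell with CHIR99021, 86 (52.8%) had a positive interaction, against 50.6% of all genes, and 77 a negative one. The interval excluded 0 for 8 of the positive and 5 of the negative ones. Together these were 7.98% of the 163 genes, against 4.94% of all genes. The mean change was -0.334 with XAV939 and -0.335 without it (99.5% kept). Of the 163 intervals, 155 (95.1%) lay within 1.5-fold, against 93.1% of all genes. The mean interaction of the genes that fell was 0.0017, beside a pooled SD of 0.0212 for the mean of a single array.

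**Figure D2:**
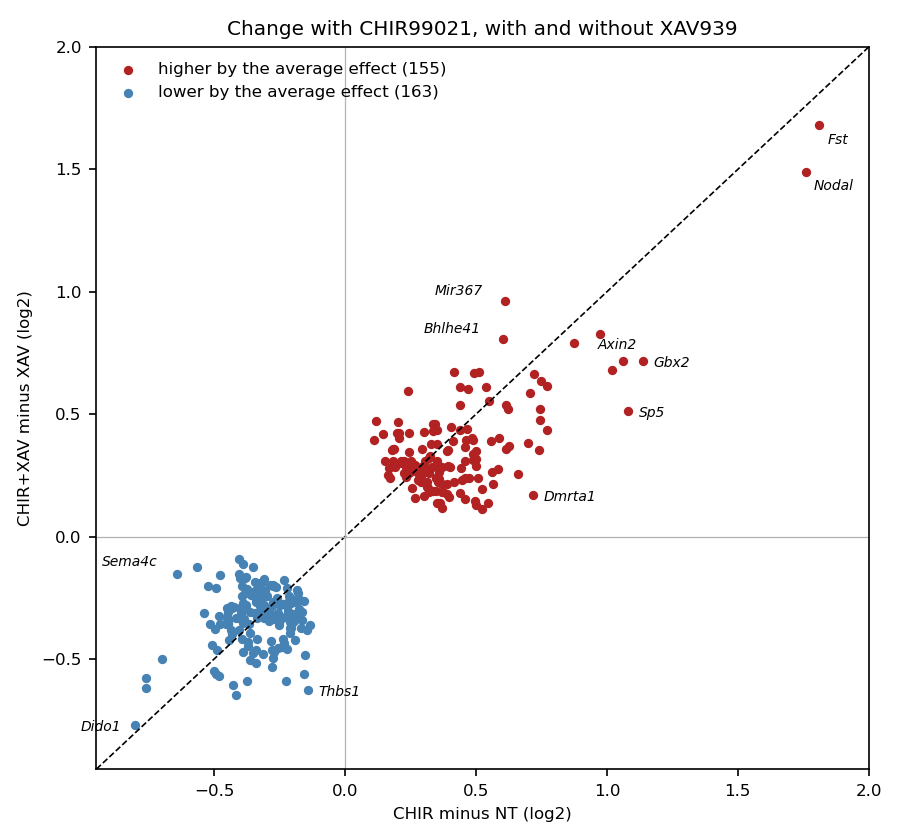
Change of each gene called by the CHIR99021 average effect (log2), with XAV939 present (CHIR+XAV minus XAV, vertical axis) and without it (CHIR minus NT, horizontal axis); each point is a gene and the dashed line marks equal changes, an interaction of 0. Gbx2, Axin2, Sp5 and Dmrta1 lie below the line, Mir367 and Bhlhe41 above it, and Fst and Dido1 close to it.

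Among the antagonised genes were transcriptional targets and regulators of the Wnt pathway. Axin2, which encodes a scaffold of the destruction complex and is itself induced by Wnt signalling, measured 6.48, 6.35 and 6.48 in CHIR+XAV cells, 6.96, 7.03 and 7.02 in CHIR cells, 5.94, 5.55 and 5.68 in XAV cells and 5.77, 6.04 and 6.03 in NT cells. Every CHIR+XAV array lay between the CHIR arrays above and the XAV and NT arrays below. CHIR99021 changed Axin2 by 0.72 with XAV939 and by 1.06 without it, an interaction of -0.34 (SE 0.14, 95% interval -0.64 to -0.05). The mean in CHIR+XAV cells was 6.44 ± 0.08 (SD, n = 3), against an additive level of 6.78.

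Sp5, a transcription factor gene and direct Wnt target, measured 4.98, 4.55 and 4.58 in CHIR+XAV cells, 5.65, 5.46 and 5.14 in CHIR cells, 4.08, 4.33 and 4.15 in XAV cells and 4.40, 4.19 and 4.41 in NT cells. The interaction was -0.57 (SE 0.18, interval -0.95 to -0.18). The means of CHIR+XAV (4.70), XAV (4.19) and NT cells (4.34) lay below the background measure of 4.94 and that of CHIR cells (5.42) above it, so the size of this interaction is not well measured.

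The 300 bases around the start of Sp5, from 250 bases before it to 50 bases after it (GRCm38.p6, chr2:70474673-70474972, plus strand), are shown because they hold 2 matches to the core letters bound by TCF/LEF factors (CTTTGA, or TCAAAG on the other strand), in capitals. The same window of Gbx2, described next (chr1:89931127-89931426, minus strand), holds 0.
Sp5: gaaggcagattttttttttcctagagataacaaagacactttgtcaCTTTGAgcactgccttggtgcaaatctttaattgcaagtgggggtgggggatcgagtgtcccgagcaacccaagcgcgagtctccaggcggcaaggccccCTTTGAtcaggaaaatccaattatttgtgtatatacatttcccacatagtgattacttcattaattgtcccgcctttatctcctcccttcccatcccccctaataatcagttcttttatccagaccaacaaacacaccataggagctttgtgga
Gbx2: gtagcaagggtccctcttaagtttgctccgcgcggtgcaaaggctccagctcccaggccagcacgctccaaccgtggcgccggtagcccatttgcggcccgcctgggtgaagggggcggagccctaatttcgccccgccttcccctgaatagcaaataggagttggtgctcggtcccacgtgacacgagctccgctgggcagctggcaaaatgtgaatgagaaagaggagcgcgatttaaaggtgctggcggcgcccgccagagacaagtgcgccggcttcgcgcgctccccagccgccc
At least 1 match stood in the windows of 15 of 115 genes that rose with CHIR99021 and had a window in the table (13.0%), of 10 of 126 that fell (7.94%) and of 2563 of all 15614 tested genes with a window (16.4%). The windows of Axin2, Nodal, Cited2 and Eomes also held 0 matches, which says only that these letters are not there.

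Gbx2, a homeobox gene that supports pluripotency in mouse cells, measured 7.14, 7.21 and 7.43 in CHIR+XAV cells, 7.82, 7.87 and 7.92 in CHIR cells, 6.40, 6.54 and 6.69 in XAV cells and 6.69, 6.86 and 6.65 in NT cells. The CHIR+XAV arrays overlapped neither the CHIR arrays nor the others. CHIR99021 changed it by 0.72 with XAV939 and by 1.14 without, an interaction of -0.42 (SE 0.13, interval -0.70 to -0.14).

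The same order of the groups held for Cited2, a transcriptional co-regulator gene, which measured 9.36, 9.17 and 9.19 in CHIR+XAV cells, 9.80, 9.73 and 9.61 in CHIR cells, 8.88, 8.85 and 8.85 in XAV cells and 8.98, 9.03 and 9.05 in NT cells. Its interaction was -0.32 (interval -0.54 to -0.09), with 54.6% of the CHIR99021 change kept. Eomes, a T-box gene of the primitive streak, measured 7.06, 7.16 and 7.40 in CHIR+XAV cells, 7.70, 7.80 and 7.60 in CHIR cells, 6.96, 6.90 and 6.93 in XAV cells and 7.12, 7.16 and 7.06 in NT cells. Here the CHIR+XAV arrays overlapped the NT arrays, and 47.3% of the change was kept (interaction -0.31, interval -0.57 to -0.05). Rspo3, the gene of a secreted protein that amplifies Wnt signals at the receptor, kept 58.8% (interaction -0.26, interval -0.50 to -0.02).

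Dmrta1, a gene of the DM-domain transcription factor family, rose with CHIR99021 on average (0.44, limma adjusted p = 0.000474) and had the smallest unadjusted p of the interaction among the CHIR99021 responders. It measured 5.49, 5.38 and 5.49 in CHIR+XAV cells, 5.92, 5.96 and 5.82 in CHIR cells, 5.20, 5.30 and 5.34 in XAV cells and 5.24, 5.27 and 5.04 in NT cells. The change was 0.17 with XAV939 and 0.72 without, an interaction of -0.55 (interval -0.79 to -0.31, limma adjusted p = 0.578). Further antagonised genes whose interval excluded 0, named after their values were seen, were Has2, which makes hyaluronan (-0.38), the kinase gene Sgk1 (-0.34) and Tiparp, a target of the aryl hydrocarbon receptor (-0.35).

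Of the genes that fell with CHIR99021, Sema4c and Rhob had the most positive interactions, but their CHIR99021 calls were lost in 8 of 23 and 10 of 22 alternative settings. With 1 array left out, the call of Sema4c was lost without CHIR+XAV replicate 1 or 2, CHIR replicate 2, XAV replicate 1 or 2, or NT replicate 3. That of Rhob was lost without CHIR+XAV replicate 1 or 3, CHIR replicate 1 or 2, XAV replicate 2 or 3, or NT replicate 2 or 3. Sema4c, the gene of a membrane semaphorin, measured 5.52, 5.49 and 5.98 in CHIR+XAV cells, 5.37, 5.19 and 5.46 in CHIR cells, 5.93, 5.84 and 5.69 in XAV cells and 5.86, 5.91 and 6.16 in NT cells. Its change was -0.15 with XAV939 and -0.64 without (interaction 0.49, interval 0.12 to 0.86), and CHIR+XAV replicate 3 alone lay among the untreated arrays. Without that replicate the interaction was 0.33. Rhob, a small GTPase gene, changed by -0.12 with XAV939 and by -0.57 without (interaction 0.44, interval 0.11 to 0.77).

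The 2 genes with the largest CHIR99021 effect, both of the Nodal and activin pathway, had negative interactions on the log2 scale. Both intervals included 0, although the value for Nodal was close to that of Rspo3 (-0.26). Nodal, a TGF-beta family ligand that patterns the embryo, measured 8.02, 7.63 and 7.86 in CHIR+XAV cells, 8.49, 8.57 and 8.67 in CHIR cells, 6.36, 6.35 and 6.33 in XAV cells and 6.92, 6.78 and 6.75 in NT cells. No 2 groups overlapped. CHIR99021 changed Nodal by 1.49 with XAV939 and by 1.76 without, an interaction of -0.27 (SE 0.13, interval -0.54 to 0.01), and 84.7% of the change was kept.

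Fst encodes follistatin, a secreted antagonist of activin. It measured 9.24, 8.91 and 9.24 in CHIR+XAV cells, 9.83, 9.79 and 9.75 in CHIR cells, 7.55, 7.49 and 7.30 in XAV cells and 7.88, 8.08 and 7.97 in NT cells, again with no overlap between groups. The mean in CHIR+XAV cells, 9.13 ± 0.19 (SD, n = 3), lay 0.13 below the additive level of 9.26 (interaction -0.13, interval -0.42 to 0.16). XAV939 lowered both genes on average, Nodal by -0.60 (limma adjusted p = 0.00136) and Fst by -0.60 (limma adjusted p = 0.00162).

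The answer for these genes depended on the scale. In linear units (2 to the power of the deposited value), Nodal averaged 230 ± 30.4 in CHIR+XAV cells, 382 ± 23.6 in CHIR cells, 81.4 ± 0.763 in XAV cells and 113 ± 7.18 in NT cells (SD, n = 3 each). Adding the linear changes gives 351, while multiplying the fold changes gives 276. For a gene that one compound raises and the other lowers, the product always lies below the sum. A value below the sum is thus partly set by the opposed effects. The measured mean minus the sum was -121 (SE 22.6, from the 4 group SDs). For Fst the mean in CHIR+XAV cells, 562 ± 71.1, minus the sum of 807 was -245 (SE 45.1), and the product was 613. Over the 155 genes that rose, 104 were below the sum on the linear scale and 101 below the additive level on the log2 scale.

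**Figure D3:**
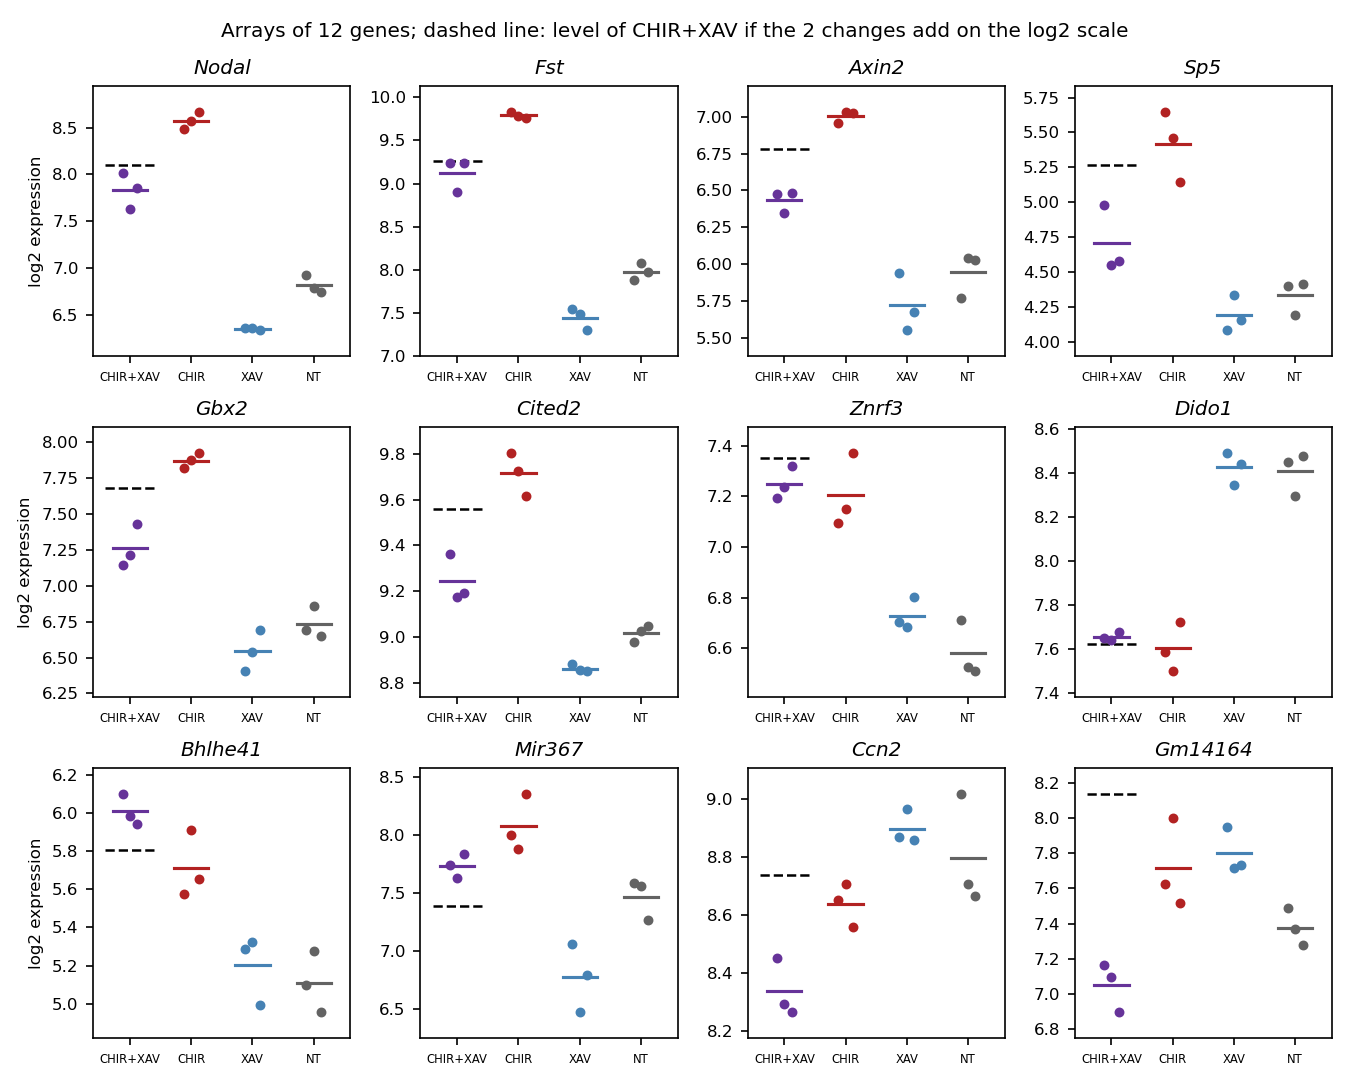
Log2 expression of 12 genes on each array (points) with group means (solid lines) in CHIR+XAV, CHIR, XAV and NT cells, and the additive level of CHIR+XAV (dashed line). The CHIR+XAV arrays of Axin2, Gbx2 and Cited2 lie below the dashed line, those of Mir367 and Bhlhe41 above it, and the group means of Fst and Dido1 lie close to it.

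Other responders also had intervals that included 0. Wnt8a, a Wnt ligand gene of the primitive streak, rose on average by 0.69 (limma adjusted p = 2.39e-06). It measured 8.45, 8.29 and 8.50 in CHIR+XAV cells, 8.61, 8.60 and 8.65 in CHIR cells, 7.77, 7.67 and 7.80 in XAV cells and 7.95, 7.95 and 7.80 in NT cells, so both groups with CHIR99021 lay above both groups without it. Its interaction was -0.06 (interval -0.29 to 0.17), and 92.0% of the change was kept. Znrf3, the gene of a ubiquitin ligase that removes Wnt receptors, measured 7.19, 7.24 and 7.32 in CHIR+XAV cells, 7.09, 7.15 and 7.37 in CHIR cells, 6.71, 6.68 and 6.80 in XAV cells and 6.71, 6.53 and 6.51 in NT cells. The CHIR+XAV and CHIR arrays overlapped, and the interaction was -0.10 (interval -0.36 to 0.16).

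The genes Axin2 and Znrf3, both part of negative feedback in the Wnt pathway, thus had different values in combination. Axin2 was lower in CHIR+XAV than in CHIR cells by -0.57 and Znrf3 differed by 0.04, but the difference between the genes was not tested, and their intervals overlap. Zeb2, a repressor gene of epithelial to mesenchymal transition, had an interaction of -0.11 (interval -0.33 to 0.10) and Epha4, an ephrin receptor gene, of -0.15 (interval -0.48 to 0.17).

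Dido1, a gene linked to stem cell differentiation, had the largest fall with CHIR99021 (-0.79 on average, limma adjusted p = 9.75e-07). It measured 7.65, 7.64 and 7.68 in CHIR+XAV cells, 7.59, 7.50 and 7.72 in CHIR cells, 8.49, 8.35 and 8.44 in XAV cells and 8.45, 8.29 and 8.48 in NT cells. The groups with CHIR99021 overlapped each other, as did those without it, and the interaction was 0.03 (interval -0.20 to 0.27). Fgf4, a growth factor gene of pluripotent cells, had an interaction of 0.03 (interval -0.28 to 0.34), and Ppp1r10, a regulator of protein phosphatase 1, of 0.18 (interval -0.10 to 0.46).

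All 5 genes of the miR-302 cluster rose with CHIR99021 and had positive interactions in the fit of all 12 arrays, but 3 of the 5 turned negative without CHIR replicate 2. Which RNA, the primary transcript or the mature miRNA, these probes detect is not given in the sources used here, and genes of a cluster share a primary transcript, so the 5 are not independent. Mir367 measured 7.75, 7.63 and 7.84 in CHIR+XAV cells, 8.00, 7.89 and 8.35 in CHIR cells, 7.06, 6.47 and 6.79 in XAV cells and 7.59, 7.56 and 7.27 in NT cells. XAV939 changed it by -0.34 in cells with CHIR99021 and by -0.69 in cells without it, and the interaction was 0.35 (interval -0.07 to 0.77). Mir302d had an interaction of 0.25, Mir302c of 0.17, Mir302a of 0.16 and Mir302b of 0.07, with every interval including 0. Without CHIR replicate 2 the values were 0.05 for Mir302d, -0.03 for Mir302c, -0.01 for Mir302a and -0.11 for Mir302b. Mir302b was also negative with array weights, without XAV replicate 2, and without XAV replicate 2 and NT replicate 3 together. The CHIR99021 calls were lost in 5 of 23 alternative settings for Mir302d, 2 each for Mir302a and Mir302b, 1 for Mir302c and 0 for Mir367.

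The 5 measured genes of the miR-106a cluster also rose with CHIR99021 and had negative interactions in the fit of all 12 arrays. Mir106a measured 5.81, 6.18 and 6.06 in CHIR+XAV cells, 6.30, 6.19 and 6.40 in CHIR cells, 5.48, 5.37 and 5.16 in XAV cells and 4.99, 5.50 and 5.34 in NT cells. Its interaction was -0.34 (interval -0.72 to 0.04). Mir92-2 had -0.25, Mir19b-2 -0.15, Mir20b -0.08 and Mir363 -0.08, with every interval including 0. Without NT replicate 1 the value was 0.11 for Mir19b-2 and 0.08 for Mir20b, and Mir20b was also positive without CHIR+XAV replicate 3, CHIR replicate 3 or XAV replicate 1. The values of Mir363 under the alternatives are not given here, so whether its sign held is left unstated. Mir367 and Mir363, whose main miRNAs share a seed, thus had interactions of opposite sign that were each within error of 0, and the difference between the clusters was not tested. XAV939 lowered 4 of the 5 genes of the miR-302 cluster on average, against 0.12% of all genes, and 0 of 5 of the miR-106a cluster (limma, adjusted p under 0.05). These XAV939 calls were lost in 14 of 23 alternative settings for Mir367 and in 16 of 23 each for Mir302a, Mir302b and Mir302d.

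Ccn2 and Thbs1, targets of the Hippo pathway effector YAP, fell with CHIR99021 on average and had negative interactions. By the definition used here they are excess genes. Ccn2, a secreted matricellular protein gene, measured 8.45, 8.30 and 8.27 in CHIR+XAV cells, 8.65, 8.71 and 8.56 in CHIR cells, 8.87, 8.97 and 8.86 in XAV cells and 9.02, 8.71 and 8.67 in NT cells. The CHIR+XAV arrays lay below all others, and the CHIR and NT arrays overlapped. The change was -0.56 with XAV939 and -0.16 without, an interaction of -0.40 (interval -0.68 to -0.13). Thbs1, the gene of thrombospondin 1, changed by -0.63 with XAV939 and by -0.14 without (interaction -0.49, interval -0.82 to -0.15). Thbs1 measured 8.17, 8.31 and 8.03 in CHIR+XAV cells, 8.39, 8.21 and 8.09 in CHIR cells, 8.75, 8.99 and 8.63 in XAV cells and 8.55, 8.36 and 8.22 in NT cells. The CHIR+XAV and CHIR arrays overlapped, while every XAV array lay above every NT array. Without NT replicate 3 and XAV replicate 2 together the interaction of Thbs1 was -0.31. Its CHIR99021 call was lost in 6 of 23 settings, those with the arrays' SD as a covariate and without CHIR+XAV replicate 3, CHIR replicate 2 or 3, XAV replicate 2 or NT replicate 1.

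Of 21 measured YAP targets, CHIR99021 lowered 5 and raised 2 on average, against 0.818% and 0.777% of all genes. The interaction had an unadjusted p under 0.05 in 4 of the 21, against 4.94% of all genes, and the other two besides Ccn2 and Thbs1 were positive, Arhgef17 (0.31) and Nuak2 (0.30). The median interaction of the list was -0.01, beside 0.00 over all genes. Among the genes that rose, the excess class was smaller, with 54 genes, and the interval excluded 0 for 3 of them. Bhlhe41 and Fnip1, described next, were not among those 3. Bhlhe41, a repressor gene of the circadian clock, measured 6.10, 5.98 and 5.94 in CHIR+XAV cells, 5.57, 5.91 and 5.65 in CHIR cells, 5.29, 5.32 and 4.99 in XAV cells and 5.10, 5.27 and 4.96 in NT cells. Every CHIR+XAV array was above every CHIR array, with an interaction of 0.20 (interval -0.12 to 0.53). Fnip1, a partner of folliculin, had 0.13 (interval -0.12 to 0.38).

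Limma called 14 genes by the average effects of both compounds, and in all 14 the effects were opposed. CHIR99021 raised and XAV939 lowered 12 of them, Gbx2, Axin2, Cited2, Eomes, Nodal, Rspo3, Fst, Nlrc4, Mir302a, Mir302b, Mir302d and Mir367. Of these 12, 7 had a negative and 5 a positive interaction. The interval excluded 0 in 5 of the negative and 0 of the positive ones. Over all genes, 49.4% were negative and 4.94% had an interval that excluded 0. CHIR99021 lowered and XAV939 raised the other 2 of the 14, the stress response gene Gadd45b (interaction 0.20) and the cadherin gene Cdh3 (-0.06). Cdh3 measured 7.51, 7.46 and 7.44 in CHIR+XAV cells, 7.22, 7.16 and 7.20 in CHIR cells, 7.76, 7.87 and 7.77 in XAV cells and 7.51, 7.42 and 7.47 in NT cells, so that the combination overlapped the untreated cells. The XAV939 calls of Nodal and Fst held in all 23 alternative settings, while those of the other 12 genes were each lost in some. The XAV939 call was lost in 9 settings for Gbx2, 10 for Cdh3, 11 each for Cited2 and Eomes, 12 for Axin2, 14 each for Gadd45b and Mir367, 14 of 22 for Rspo3, 16 of 22 for Nlrc4 and 16 each for Mir302a, Mir302b and Mir302d. With 1 array left out, the Axin2 call held without XAV replicate 1 and without NT replicate 1 and was lost without any of the other 10. The Gbx2 call was lost without CHIR+XAV replicate 1 or 2, CHIR replicate 2, XAV replicate 1 or 2, or NT replicate 2 or 3. The CHIR99021 calls of both held throughout.

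**Figure D4:**
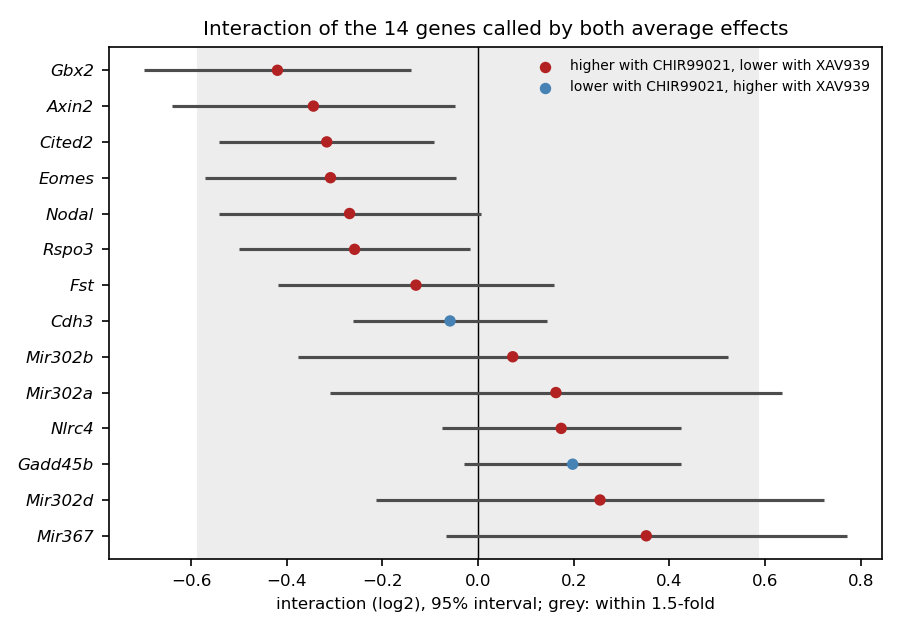
Interaction (log2, horizontal axis) with its 95% interval for the 14 genes called by the average effects of both compounds, with departures within 1.5-fold in grey. The intervals of Gbx2, Axin2, Cited2, Eomes and Rspo3 exclude 0, and those of the other 9 include it.

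The response to XAV939 itself was chosen the same way. Limma called 42 genes higher (0.211%) and 24 lower (0.12%) by its average effect, a split of 63.6% higher that was 28.6% higher after quantile normalization (4 higher, 10 lower) and 23.1% after cyclic loess (3 higher, 10 lower). It was 73.6% after median centring, 86.5% with a filter at the median of expression and 46.2% with the arrays' SD as a covariate in the fit. Of the 42 genes that rose, 20 had a negative and 22 a positive interaction, and 41 intervals lay within 1.5-fold. Of the 24 that fell, 12 had a positive interaction and 12 a negative one. The interval excluded 0 for 1 of the positive and 6 of the negative ones, 29.2% of the 24 genes. Over all genes, 49.4% were negative, 4.94% had an interval that excluded 0, and 93.1% had one within 1.5-fold. The whole count of 66 was 2 without CHIR+XAV replicate 2 or without NT replicate 3, and at most 66 with any 1 array left out, so these genes are described and not weighed further.

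The XAV939 rises with the largest values included genes near the additive level, although the XAV939 calls of Tet3, Flnc and Dll1 were lost in 13, 15 and 10 of 23 settings. Tet3, which oxidises methylated cytosine, changed by 0.45 in cells with CHIR99021 and by 0.47 in cells without it (interaction -0.02, interval -0.36 to 0.32). Flnc, a filamin gene, changed by 0.42 and 0.40 in the same order (interaction 0.02, interval -0.31 to 0.35). Dll1, a Notch ligand gene, measured 6.35, 6.69 and 6.32 in CHIR+XAV cells, 6.11, 6.24 and 6.16 in CHIR cells, 6.33, 6.37 and 6.49 in XAV cells and 5.95, 5.85 and 5.72 in NT cells. The untreated arrays of Dll1 were below all others, and its interaction was -0.27 (interval -0.57 to 0.02).

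Atf3, a stress-induced transcription factor gene, measured 9.23, 8.88 and 8.79 in CHIR+XAV cells, 8.87, 8.92 and 8.78 in CHIR cells, 8.92, 8.96 and 8.75 in XAV cells and 8.45, 8.35 and 8.10 in NT cells. The 3 treated groups overlapped one another, and the NT arrays lay below all of them. The interaction was -0.48 (interval -0.81 to -0.14), with the CHIR+XAV mean of 8.97 against an additive level of 9.44. Neither average effect of Atf3 passed (limma adjusted p = 0.0505 for CHIR99021 and 0.0646 for XAV939).

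Ddit4, which restrains mTORC1 under stress, measured 10.11, 10.22 and 10.07 in CHIR+XAV cells, 10.08, 9.94 and 9.94 in CHIR cells, 10.00, 10.06 and 9.75 in XAV cells and 9.52, 9.51 and 9.36 in NT cells. Its interaction was -0.33 (interval -0.60 to -0.06), and its CHIR99021 average effect passed (0.36, limma adjusted p = 0.00735). Ppp1r15a, a phosphatase subunit of the stress response, had an interaction of -0.38 (interval -0.71 to -0.04). Without NT replicate 3 and XAV replicate 2 together the interaction was -0.33 for Atf3 and -0.21 for Ddit4.

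Of the 25 genes on the ATF4 and stress list, 17 had a negative interaction and 3 an unadjusted p under 0.05, with a median of -0.04, against 49.4% negative, 4.94% under 0.05 and a median of 0.00 over all genes. CHIR99021 raised 1 of the 25 on average, against 0.777% of all genes, and XAV939 raised 0, against 0.211%. The 28 immediate early genes, which respond within minutes to many stimuli, held 8 genes with an unadjusted p under 0.05, 5 of them negative and 3 positive, against 4.94% of all genes. The list shares Atf3 with the stress list. Jun (-0.32), Egr1 (-0.33) and Gadd45a (-0.32) were negative, and Rhob (0.44), Zfp36 (0.31) and Ier5 (0.27) positive.

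The gene with the smallest p of the interaction, Gm14164, a predicted gene with no assigned role, was called by neither average effect. It measured 7.16, 7.10 and 6.89 in CHIR+XAV cells, 7.63, 8.00 and 7.51 in CHIR cells, 7.95, 7.72 and 7.73 in XAV cells and 7.49, 7.37 and 7.27 in NT cells. Each compound alone gave values above the untreated cells and the combination gave values below them, with no overlap. CHIR99021 changed it by -0.75 with XAV939 and by 0.34 without, an interaction of -1.09 (SE 0.16, interval -1.43 to -0.74, limma adjusted p = 0.107).

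Dnajb4, a heat shock co-chaperone gene, measured 5.52, 5.65 and 5.54 in CHIR+XAV cells, 5.80, 6.07 and 5.86 in CHIR cells, 6.07, 6.04 and 6.06 in XAV cells and 5.76, 5.84 and 5.68 in NT cells. The CHIR+XAV arrays were again the lowest (interaction -0.64, interval -0.88 to -0.40, limma adjusted p = 0.352). Mpv17l, a mitochondrial and peroxisomal protein gene, had an interaction of -0.63. The largest positive value among the genes with the smallest p was that of Crygb, a lens crystallin gene, at 0.70, but its mean of 4.62 lay below the background measure. Tm6sf1, at 5.37 on average, had 0.65.

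In 79 genes (0.396%) the arrays went opposite ways without overlap. Every CHIR array lay above every NT array and every CHIR+XAV array below every XAV array, or the reverse. The number expected by chance was not computed, so this count does not show a set of reversed genes. Olfactory receptor genes, a class used for the background measure, were among the 79, as was Gm14164. Cyp1a1, the main target of the aryl hydrocarbon receptor, measured 5.26, 5.62 and 5.90 in CHIR+XAV cells, 5.95, 5.78 and 5.85 in CHIR cells, 5.79, 5.74 and 5.62 in XAV cells and 5.45, 5.45 and 5.23 in NT cells. The CHIR+XAV arrays spread over most of the range of the other groups, and the interaction was -0.61 (interval -0.98 to -0.24), or -0.44 without CHIR+XAV replicate 1. Of 9 measured genes of that receptor's list, 7 had a negative interaction, against 49.4% of all genes. The 3 of them with an unadjusted p under 0.05 (limma), against 4.94% of all genes, were Cyp1a1, Cyp1b1 (-0.39) and Tiparp (-0.35).

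The medians of the gene lists described next ran from -0.05 to 0.10, beside 0.00 over all genes. Counts of signs and of unadjusted p under 0.05 (limma) differed from the shares of all genes in some lists. Of the 30 measured Wnt feedback and target genes, CHIR99021 raised 7 (Axin2, Sp5, Znrf3, Lgr5, Tnfrsf19, Dkk1 and Cdx2) and lowered 2 (Myc and Ascl2), against 0.777% and 0.818% of all genes. All 7 that rose had negative interactions, of -0.10 to -0.57, but the interval excluded 0 only for Axin2 and Sp5. Of the 30, 3 had an unadjusted p under 0.05 (limma), Axin2, Sp5 and Lgr4, and Lgr4 was positive (0.38, interval 0.04 to 0.725). In all, 18 of the 30 were negative, with a median of -0.04, against 49.4% of all genes and 65.2% of the genes that rose with CHIR99021. Lef1 (-0.04, interval -0.27 to 0.18) and Nkd1 (0.00, interval -0.28 to 0.29), Wnt target genes called by neither average effect, had interactions near 0. Without a called response to either compound, such a value does not show that changes add. Tbxt and Tcf7 were not analysed here.

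The 24 genes of the destruction complex and its regulators were all above background, and 8 had a negative interaction, Axin2 among them. Over all genes, 49.4% were negative and 11594 of 19938 had a mean above background. Axin2 was the one gene of this list called by the CHIR99021 average effect. The beta-catenin gene Ctnnb1 had an interaction of -0.08, Axin1 of 0.15, Gsk3b of 0.09 and the tankyrase genes Tnks and Tnks2 of -0.04 and 0.05. Amer1, which recruits APC to the membrane, had 0.40 (interval 0.13 to 0.68).

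Of 23 measured genes of the Nodal and follistatin pathway, 6 had a negative interaction, among them Nodal and Fst, and 17 a positive one (median 0.07). The 4 with an unadjusted p under 0.05 were Inhbb (0.42), Smad7 (0.33), Lefty1 (0.32) and Fstl3 (0.29), of which Lefty1 and Inhbb, at 3.9 and 4.7, lay below background. Among the 23 Notch pathway genes 4 were negative and 19 positive (median 0.10, 2 with an unadjusted p under 0.05), and among the 29 folliculin and lysosome genes 6 were negative and 23 positive (median 0.08, 0 under 0.05). Over all genes 50.6% were positive and 4.94% had an unadjusted p under 0.05, with a median of 0.00.

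The core pluripotency factors were at or near the additive level. Pou5f1 had an interaction of 0.01 (interval -0.20 to 0.23), Sox2 of -0.09 (interval -0.32 to 0.14) and Nanog of -0.22 (interval -0.51 to 0.08). CHIR99021 changed Nanog by 0.16 with XAV939 and by 0.38 without it, so 42.0% of the change was kept. Of the 25 pluripotency genes, 15 had a negative interaction, with a median of -0.05, against 49.4% and 0.00 over all genes. CHIR99021 raised 4, Gbx2, Tbx3, Lifr and Klf2, against 0.777% of all genes. Myc fell with CHIR99021 on average (-0.40, limma adjusted p = 0.00237) and had an interaction of -0.17 (interval -0.43 to 0.09).

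**Figure D5:**
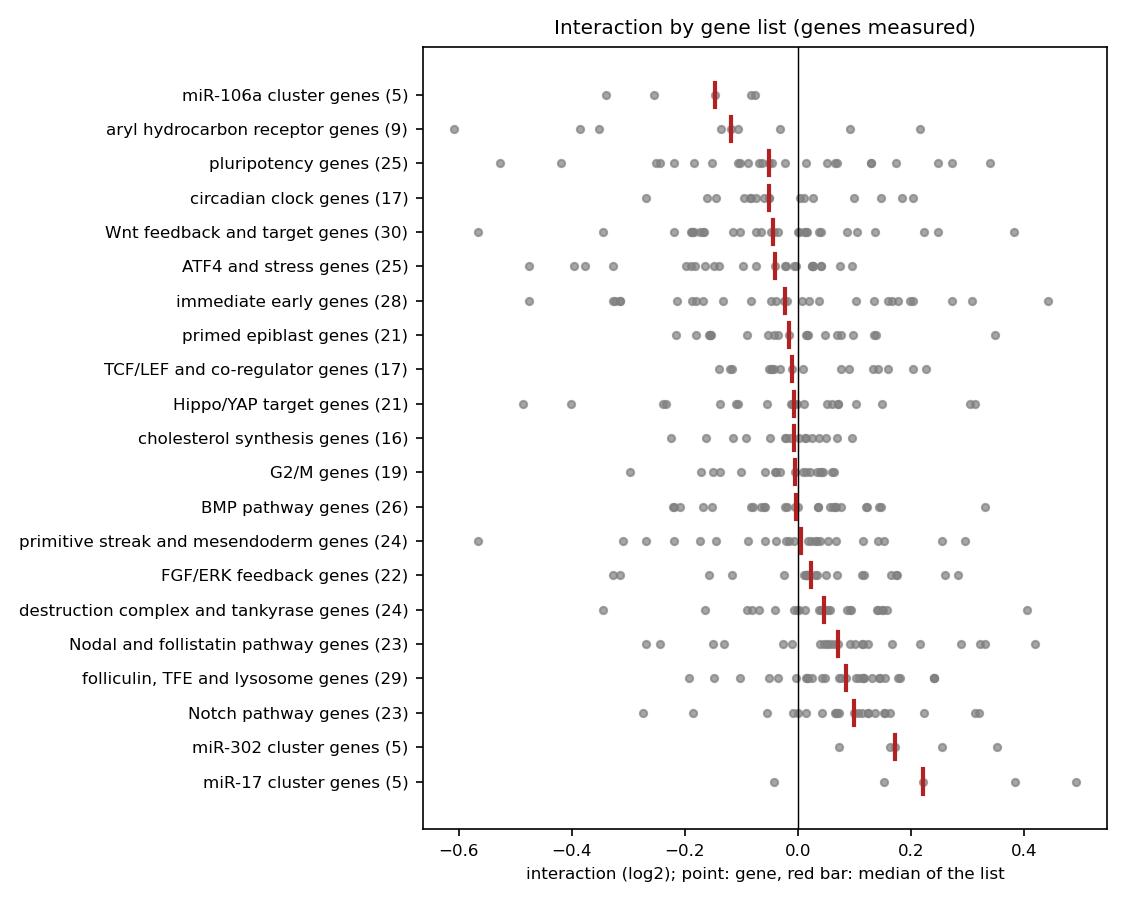
Interaction (log2) of each measured gene (points) in 21 gene lists, with the number of genes in brackets and the list's median as a red bar. The medians run from -0.15 for the miR-106a cluster to 0.22 for the miR-17 cluster, and each list of 9 or more genes spans 0.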

How the data were processed

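The table deposited by the authors held 35399 probes on 12 Affymetrix arrays (1 colour, biotin, per the labels) with values of 2.52 to 14.3, read as log2 expression. The base was inferred from that range. The software was Partek, per the submitters' processing notes, which give no version, and the sources used here give neither the background correction nor the normalization. The medians of the arrays were 5.22 to 5.27 and correlations between arrays 0.990 to 0.995, and no further normalization was applied. Arrays carry no read depth, and 3 arrays a group limit the precision.

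Of the probes, 21789 had 1 gene symbol in the platform annotation, 1621 several and 11989 none; 91 with 1 symbol had no RefSeq match and kept the annotation's name. The brightest probe stood for each gene (999 genes had more than 1).

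Group means were fitted with limma 3.58.1 (R 4.3.3, statmod 1.5.0; residual df 8, prior df 8.03), with Benjamini-Hochberg adjustment over all genes in each of 7 contrasts and calls at an adjusted p under 0.05. Intervals are 95% intervals of the fit, not adjusted. The method was checked on simulated data. Figures used matplotlib 3.10.9 in Python 3.11.15.

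The groups, gene lists and rule for named genes were chosen with earlier results of these data known. The rule took the 10 smallest p of the interaction in each direction, the 12 largest rises and falls with CHIR99021, the 6 largest of each with XAV939, the 5 most negative and 5 most positive interactions among responders, 24 fixed genes and up to 4 members per list; genes called by both average effects, YAP and stress genes outside these limits, and those said to be, were named after their values were seen. Replicate numbers did not pair the arrays: correlations of deviations ran from -0.247 to 0.201 in 18 same-numbered pairs and from -0.301 to 0.328 in other pairs.

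The 23 alternatives were 3 other normalizations, 2 filters on dim genes, the mean of a gene's probes, trend and robust eBayes, array weights, a replicate block, each array's SD as a covariate, and leaving out arrays. The linear scale and the mean interaction over called genes were added after seeing the data.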

Additional observations from a re-analysis of the deposited data

How the results depend on the processing

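The interaction called 0 genes in 20 of 23 alternative settings of limma. It called 1 gene with trend and robust eBayes, 1 with array weights and 0 to 1 when each array was left out in turn (1 without CHIR replicate 3); in each case it was Gm14164, with adjusted p-values of 0.0479, 0.0440 and 0.0405, against 0.107 as reported and a range of interaction from -1.19 to -0.94. The count for the CHIR99021 average effect, 318, was 178 with the SD of each array as a covariate, 180 without NT replicate 3 and XAV replicate 2 together, and 211 to 271 with 1 array left out (211 without CHIR+XAV replicate 2). The count for the XAV939 average effect, 66, was 14 after quantile normalization, 13 after cyclic loess, 139 and 237 with filters at the 25th percentile and the median of expression, 255 with array weights, 2 without NT replicate 3 and XAV replicate 2 together, and 2 to 66 with 1 array left out (2 without CHIR+XAV replicate 2 or NT replicate 3). Filters test fewer genes; the cause of the other moves was not tested. With a replicate block the counts were 0 for the interaction, 280 for CHIR99021 and 3 for XAV939; 4 of 12 arrays correlated best with their own number, so the numbers were not taken to pair the arrays. Of the genes called, 127 of 318 for CHIR99021 and 2 of 66 for XAV939 kept their call in every alternative that tested them. Genes that rose with a negative interaction numbered 89 to 108 over all alternatives (101 as reported), and genes that fell with a positive one 71 to 92 (86 as reported). Signal limits the dim genes: Sp5 and Crygb lay below the background measure.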

Other observations

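The 13610 probes with no or several gene symbols were fitted in the same way with all 35399 probes of the table. Limma called 0 of them by the interaction (smallest adjusted p = 0.594), and 882 (6.48%) had an unadjusted p under 0.05, against 1721 (4.86%) of all probes.

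The 5 measured genes of the miR-17 cluster, a paralogue of the miR-106a cluster, had a median interaction of 0.22, with 4 of 5 positive. CHIR99021 raised Mir19b-1 and Mir20a on average. Mir18 had the most positive value, 0.49, and Mir17 had 0.38, both with intervals that included 0.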
